A study of Mus musculus with 12 samples.

Results

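The genes described here are 31 mouse genes of cholesterol synthesis and sterol control, taken by name from the 25759 genes of the expression table. They comprise 6 genes of SREBP control, 7 genes of the mevalonate steps, 11 genes of the sterol steps, 3 genes of sterol transport and 4 genes of the liver X receptor (LXR) and of sterol efflux. Their transcripts were counted in 12 RNA-seq libraries from mouse gastric organoids, which are epithelial structures grown from stomach tissue in a gel. Of the 4 groups of 3 libraries, 1 was untreated, and the others had been incubated for 4 h with 1 bacterium each: Fusobacterium nucleatum, or Helicobacter pylori, or Neisseria subflava. All organoids, untreated ones included, had been moved at first passage onto matrigel, in medium without growth factors or antibiotics. The labels give no genotype, strain or age of the mice, no bacterial strain or dose, and nothing on whether replicates came from separate cultures, so p values reflect no more than the spread among the libraries at hand, which may be technical.

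Cholesterol is built from acetyl-CoA, first through mevalonate to farnesyl pyrophosphate and then through squalene and lanosterol. When sterol in the endoplasmic reticulum is low, SCAP escorts the SREBP transcription factors to the Golgi, where they are cut and released to raise transcription of the synthesis genes. When sterol is plentiful, INSIG proteins hold SCAP back, and LXR, activated by oxysterols, raises the genes that export sterol or limit its uptake.

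The DNA just upstream of some of these genes shows the elements through which SREBP and its partner NF-Y act in the textbook account of sterol control. RefSeq promoters (GRCm38.p6) were held for 25 of the 31 genes, and the window searched was the 200 bases that end 51 bases before the annotated start. The 6 genes without an entry are Fdps, Fdft1, Sqle, Stard4, Npc1 and Abcg1. Windows are printed for 3 genes that rose with all 3 bacteria (Hmgcs1 at chr13:119690101-119690300 on the plus strand, Mvd at chr8:122443473-122443672 on the minus strand and Insig1 at chr5:28071162-28071361 on the plus strand) and for 2 that fell with Neisseria (Mylip at chr13:45389492-45389691 on the plus strand and Abca1 at chr4:53159946-53160145 on the minus strand). Each is given 5′ to 3′ on the strand of the gene, and capitals mark CCAAT, the NF-Y box, or its reverse complement ATTGG, and CACCCCAC, a sterol element.
Hmgcs1: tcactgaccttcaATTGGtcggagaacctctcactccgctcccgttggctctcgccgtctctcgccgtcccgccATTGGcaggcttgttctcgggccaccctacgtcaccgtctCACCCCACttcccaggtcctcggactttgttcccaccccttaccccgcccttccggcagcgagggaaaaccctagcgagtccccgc
Mvd: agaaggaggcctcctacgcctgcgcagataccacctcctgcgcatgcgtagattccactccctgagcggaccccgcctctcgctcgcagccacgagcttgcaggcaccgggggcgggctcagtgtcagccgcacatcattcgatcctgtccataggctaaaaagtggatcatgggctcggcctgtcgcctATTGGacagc
Insig1: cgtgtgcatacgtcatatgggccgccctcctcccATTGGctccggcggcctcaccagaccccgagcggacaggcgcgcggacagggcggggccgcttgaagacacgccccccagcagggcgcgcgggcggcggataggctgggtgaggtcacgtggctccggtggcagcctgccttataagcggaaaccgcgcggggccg
Mylip: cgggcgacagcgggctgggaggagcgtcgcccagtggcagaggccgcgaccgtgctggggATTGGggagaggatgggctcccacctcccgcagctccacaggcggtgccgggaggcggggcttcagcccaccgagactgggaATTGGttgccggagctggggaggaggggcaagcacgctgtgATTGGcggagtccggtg
Abca1: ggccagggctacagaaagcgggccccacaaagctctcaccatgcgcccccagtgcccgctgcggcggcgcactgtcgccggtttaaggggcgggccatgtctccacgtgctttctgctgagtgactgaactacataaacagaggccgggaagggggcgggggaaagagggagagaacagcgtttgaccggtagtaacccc
CCAAT on either strand was found in 15 of the 25 windows and in 9 of the 15 windows of synthesis genes, against 28.9% of the 27025 promoters in the RefSeq table. The windows of Idi1, Msmo1, Srebf2 and Tm7sf2 overlap an annotated exon of the same gene. Of these, the windows of Msmo1 and Srebf2 are among those with CCAAT. CACCCCAC, on either strand, was found in the windows of Hmgcs1 and Acat2 and in 1.94% of all promoters. The core TCACNCCAC, which overlaps it in Hmgcs1, was found in that member alone and in 0.799% of all promoters. The E-box CACGTG was found in the windows of Insig1, Abca1, Hsd17b7 and Sc5d and in 4.35% of all promoters. The direct repeat that LXR binds was searched only in its exact consensus form, on both strands. That form was found in 0 of the 25 windows and in 0.0074% of all promoters. So rare a string could hardly be met in 25 windows, and forms with mismatches were not searched. The 0 therefore does not show that these windows, that of Abca1 included, lack an LXR site. The Mylip window holds 3 ATTGG and the Abca1 window holds none. A match is a description of the letters in these windows.

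Library totals ran from 16955155 to 23236260 counts, mitochondrial genes held 4.50% to 5.18% of them, and all 31 genes passed the filter on low counts. The 13 markers of gastric epithelium were present in all groups, with summed levels of 26797 to 30736 TPM (a transcript level scaled for gene length and library total), whereas 6 markers of parietal and chief cells summed to 2.03 to 4.47 TPM. Markers of pancreatic islets summed to 304 to 411 TPM in the untreated libraries, 214 TPM in Helicobacter replicate 1 and 15.7 to 25.6 TPM in the other libraries. Pancreatic acinar markers summed to 84.3 to 109 TPM in untreated libraries and 20.6 to 51.2 TPM in the others. The part of this pancreatic RNA in the comparisons with untreated organoids was not tested. Without Helicobacter replicate 1, 13 of the 31 genes rose with Helicobacter, against 15 with it. Leukocyte markers summed to 40.9 to 44.3 TPM with Fusobacterium, 24.3 to 24.7 with Helicobacter, 29.3 to 30.9 with Neisseria and 22.5 to 27.0 in untreated organoids. Nearly all of that was Cd68, while Ptprc, the general leukocyte marker, did not exceed 1.02 TPM in any library. In such bulk RNA, fewer cells of a type and less RNA per cell cannot be told apart.

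In untreated organoids the 7 most abundant of the 31 transcripts were all of the mevalonate and sterol steps, while other genes of these steps, such as Mvd, Mvk, Lss and Pmvk, lay in the middle of the order or lower. Fdps stood at 270 ± 1.98 TPM (SD, n = 3, as for all TPM means), Idi1 at 266 ± 0.491, Hmgcs1 at 241 ± 1.29, Msmo1 at 218 ± 4.98 and Cyp51 at 191 ± 5.17. The spread of Mvk (35.9 ± 3.01), Lss (35.6 ± 2.85) and Scap (35.1 ± 0.947) overlapped, so their order is not resolved. The lowest 5 were Npc1 at 8.42 ± 0.547, Lpin1 at 4.69 ± 0.112, Abcg1 at 2.39 ± 0.310, Mylip at 1.71 ± 0.208 and Abca1 at 1.14 ± 0.123 TPM. The 3 LXR target genes thus lay at the bottom of the order.

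Synthesis genes were higher with each bacterium and most with Neisseria. Of the 18 genes of the mevalonate and sterol steps, 14 rose with Neisseria and none fell, 13 rose and 2 fell with Fusobacterium, and 12 rose and none fell with Helicobacter (edgeR's quasi-likelihood test, adjusted by Benjamini-Hochberg over 12805 genes, threshold 0.05). Of all 31 genes, 20 rose and 2 fell with Neisseria, where 25.4% of all tested genes were called higher and 25.5% lower. With Fusobacterium 19 rose and 4 fell, against 32.8% and 32.4% of all genes, and with Helicobacter 15 rose and 0 fell, against 10.5% and 8.36%. No synthesis gene was lower with Neisseria or Helicobacter at an unadjusted p below 0.05 or with DESeq2, while limma on log2(TPM + 1) called 1, Ebp, lower with Neisseria. At an unadjusted p below 0.05, 2 of the 31 were lower with Helicobacter, while DESeq2 called 0 lower and limma on log2(TPM + 1) called Mylip alone. The median log2 fold change of the 18 synthesis genes was 0.70 with Neisseria, 0.38 with Fusobacterium and 0.22 with Helicobacter, beside medians of -0.02, -0.00 and 0.00 over all tested genes. There were 11 synthesis genes that rose with all 3 bacteria. Among them, the Helicobacter calls of Idi1 and Lss were each lost in 14 of 22 alternative settings. How many of all tested genes rose with all 3 was not counted, so the 11 cannot be set against such a share. By estimate alone, called or not, 16 of the 18 had their largest change with Neisseria. These include Mvk and Tm7sf2, called with no bacterium, and Nsdhl, at 0.1464 against 0.1462 with Helicobacter. They also include Sqle and Hsd17b7, whose order between Neisseria and Fusobacterium depends on the scaling. By limma on log2(TPM + 1) that order turned as well for Tm7sf2, which was called, and for Nsdhl and Sc5d, which were not. The same count over all genes was not made. The 3 comparisons with untreated organoids share the same untreated libraries.

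**Figure D1:**
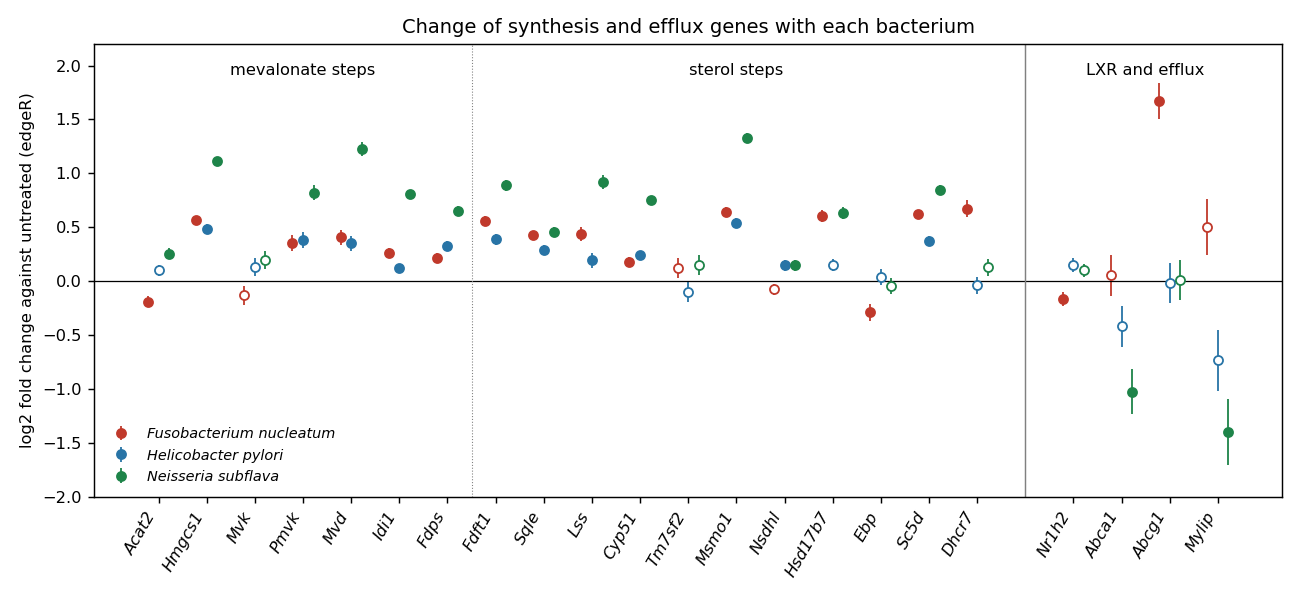
Log2 fold change against untreated organoids (edgeR, bars are standard errors) of the 18 synthesis genes in pathway order and of the 4 LXR and efflux genes, for each bacterium. Filled points passed the adjusted threshold of 0.05 and open points did not; Neisseria points lie highest for most synthesis genes, reaching 1.33 for Msmo1, and lowest for Abca1 and Mylip.

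Fold changes here rest on TMM scaling, which takes most genes as not changed. Without scaling beyond the library total, the median of all genes moved to -0.18 with Neisseria and -0.06 with Helicobacter, and of the genes called with Neisseria 26.9% were higher, against 49.9% with TMM (with Helicobacter 32.1% against 55.8%). On that scale 12 synthesis genes rose with Neisseria and 1, Ebp, fell, and 9 rose with Helicobacter. TPM levels carry no such scaling either, so ratios of the Neisseria levels printed here are smaller than the fold changes beside them.

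Among the mevalonate steps, 6 of 7 genes rose with Neisseria and 5 of 7 with each of the other bacteria. Hmgcs1, which makes HMG-CoA, had levels of 240, 243 and 241 TPM in untreated organoids, 451, 448 and 462 with Neisseria, 350, 383 and 362 with Fusobacterium and 313, 323 and 311 with Helicobacter. No library of any of the 4 groups overlapped another group, and the order was Neisseria, Fusobacterium, Helicobacter, untreated. The log2 fold changes against untreated were 1.12 ± 0.04 with Neisseria (edgeR adjusted p = 5.19e-17), 0.57 ± 0.04 with Fusobacterium (adjusted p = 1.77e-11) and 0.49 ± 0.04 with Helicobacter (adjusted p = 2.06e-09).

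Mvd, which decarboxylates mevalonate pyrophosphate to the isoprene unit, had 54.2, 48.3 and 52.3 TPM in untreated organoids, 104, 104 and 108 with Neisseria, 76.7, 68.7 and 64.6 with Fusobacterium and 59.3, 62.1 and 63.2 with Helicobacter. The Neisseria libraries lay well above all others, and no treated library overlapped an untreated one. Its log2 fold change was 1.23 ± 0.07 with Neisseria (edgeR adjusted p = 1.43e-13), 0.41 ± 0.07 with Fusobacterium and 0.35 ± 0.07 with Helicobacter. Mvd overlaps Gm20388 on the opposite strand, which changed by -0.40 ± 0.67, -0.48 ± 0.67 and -0.02 ± 0.64 in the same order, none called. The phosphomevalonate kinase Pmvk rose by 0.82 ± 0.07, 0.35 ± 0.08 and 0.38 ± 0.07 on the log2 scale in the same order of bacteria. Fdps, which joins isoprene units into farnesyl pyrophosphate, rose by 0.65 ± 0.05, 0.21 ± 0.05 and 0.33 ± 0.05.

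Idi1, the isomerase of the isoprene unit, had 265, 266 and 266 TPM in untreated organoids, 399, 414 and 399 with Neisseria, 324, 327 and 329 with Fusobacterium and 263, 273 and 272 with Helicobacter. Neisseria and Fusobacterium libraries stood clear of the untreated ones and Helicobacter libraries did not. It rose by 0.81 ± 0.04 with Neisseria (edgeR adjusted p = 2.47e-14) and by 0.26 ± 0.04 with Fusobacterium. The call with Helicobacter (0.12 ± 0.04, edgeR adjusted p = 0.0375) was lost in 14 of 22 alternative settings, without scaling and without any 1 of 8 libraries among them. Of the remaining mevalonate genes, Acat2, which joins 2 acetyl-CoA, fell by 0.19 ± 0.05 with Fusobacterium (edgeR adjusted p = 0.00233) and rose by 0.25 ± 0.05 with Neisseria (edgeR adjusted p = 0.000178), a rise that was not called without scaling (0.09, edgeR adjusted p = 0.12). Its levels were 98.9, 98.0 and 97.9 TPM in untreated organoids, 87.9, 88.2 and 88.1 with Fusobacterium, 97.5, 96.5 and 100 with Helicobacter and 104, 99.7 and 100 with Neisseria. The Fusobacterium libraries lay below all others, and the remaining groups were close. Acat3, a neighbouring gene of similar sequence that can share reads with Acat2, had 31 to 81 counts per library. Mvk, mevalonate kinase, was called with none of the bacteria by edgeR (-0.13 ± 0.09 with Fusobacterium, 0.13 ± 0.08 with Helicobacter and 0.19 ± 0.08 with Neisseria, where 5 of 22 settings called it higher).

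**Figure D2:**
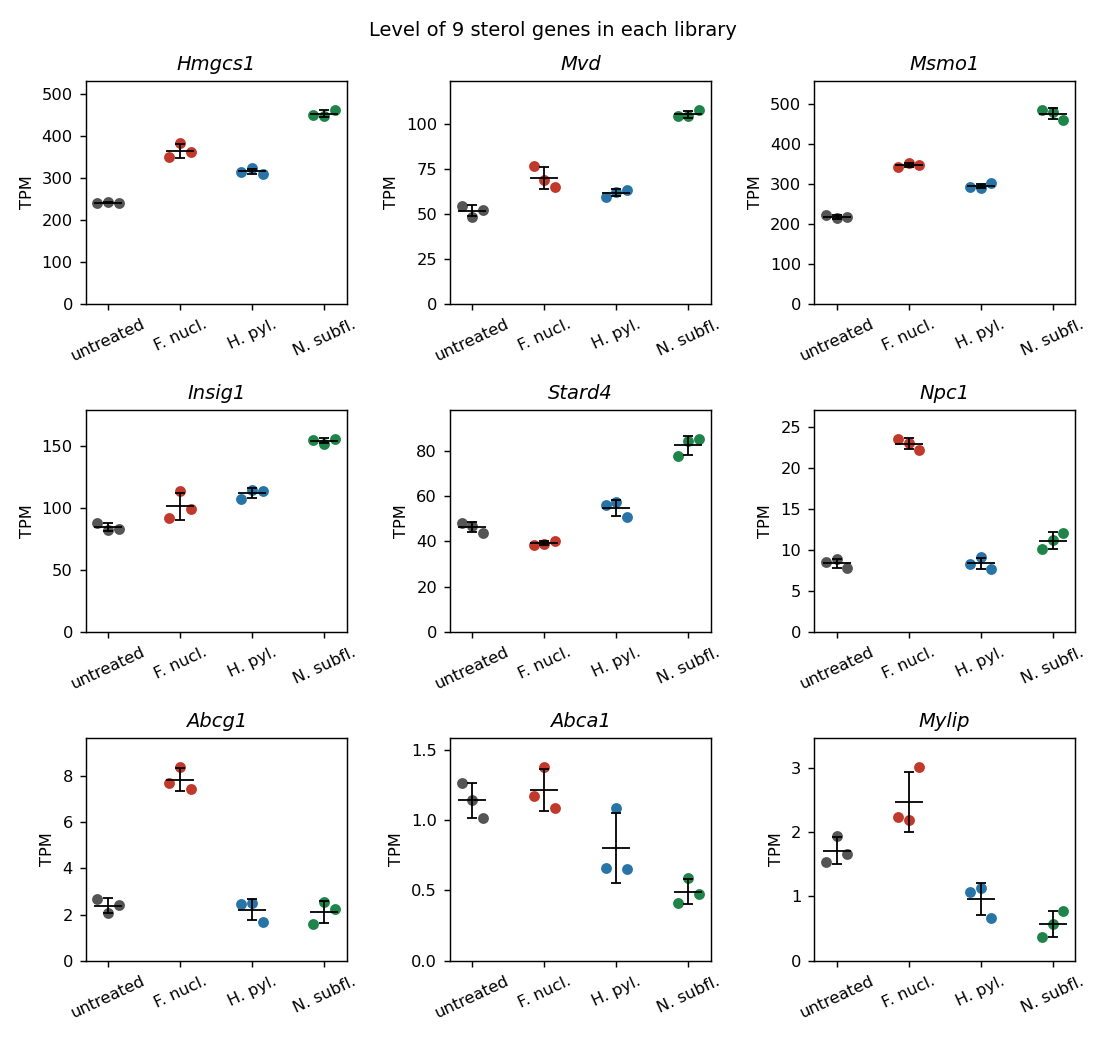
TPM of 9 genes in each of the 12 libraries, 1 point per library, with the group mean (line) and SD (bars, n = 3). Neisseria libraries are highest for Hmgcs1, Mvd, Msmo1, Insig1 and Stard4, Fusobacterium libraries are highest for Npc1 and Abcg1, and Neisseria libraries are lowest for Abca1.

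Of the 11 genes of the sterol steps, 8 rose with Neisseria, 8 rose and 1 fell with Fusobacterium, and 7 rose with Helicobacter. Msmo1, an oxidase of the methyl groups of lanosterol, had 223, 214 and 217 TPM in untreated organoids, 485, 482 and 460 with Neisseria, 342, 354 and 347 with Fusobacterium and 293, 290 and 302 with Helicobacter. The 4 groups did not overlap. Its log2 fold changes of 1.33 ± 0.05 with Neisseria (edgeR adjusted p = 3.33e-17), 0.64 ± 0.05 with Fusobacterium (adjusted p = 2.83e-11) and 0.54 ± 0.05 with Helicobacter (adjusted p = 5.52e-09) were the largest of the 18 synthesis genes with Neisseria and with Helicobacter.

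Fdft1, squalene synthase, the first enzyme committed to sterols, had 114, 120 and 122 TPM in untreated organoids, 188, 188 and 195 with Neisseria, 175, 180 and 180 with Fusobacterium and 146, 138 and 150 with Helicobacter. All treated libraries lay above all untreated ones, and the Neisseria libraries above the rest. Fdft1 rose by 0.89 ± 0.05, 0.56 ± 0.05 and 0.39 ± 0.05 on the log2 scale with Neisseria, Fusobacterium and Helicobacter (edgeR adjusted p = 2.31e-13, 8.48e-10 and 3.14e-06). The gene overlaps Ctsb on the opposite strand, which changed by 0.06 ± 0.04, 0.23 ± 0.04 and 0.07 ± 0.04 in the same order, and whether strand was used in counting is not given in the sources used here. In the same order of bacteria, Cyp51, lanosterol demethylase, rose by 0.75 ± 0.04, 0.18 ± 0.04 and 0.24 ± 0.04, and Sc5d, a sterol desaturase, by 0.85 ± 0.04, 0.62 ± 0.04 and 0.38 ± 0.04. Cyp51 overlaps Akap9 on the opposite strand, which changed by -0.33 ± 0.10, -1.08 ± 0.10 and -0.37 ± 0.10. Lss, which closes the sterol rings, rose by 0.92 ± 0.06 with Neisseria and 0.43 ± 0.07 with Fusobacterium. Its call with Helicobacter (0.19 ± 0.07, edgeR adjusted p = 0.0438), where the libraries overlapped untreated ones, was lost in 14 of 22 settings, including without any 1 of 7 libraries.

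Some sterol steps departed from the order set by Hmgcs1 and Msmo1. Sqle, squalene epoxidase, had 137, 133 and 125 TPM in untreated organoids, 176, 182 and 184 with Fusobacterium, 149, 158 and 164 with Neisseria and 146, 159 and 146 with Helicobacter. All treated libraries lay above the untreated ones, and Fusobacterium libraries were highest in TPM. The log2 fold changes were 0.42 ± 0.04, 0.46 ± 0.04 and 0.29 ± 0.04 with Fusobacterium, Neisseria and Helicobacter (edgeR adjusted p = 4.19e-09, 1.81e-09 and 1.36e-05). Fusobacterium and Neisseria differed by -0.03 ± 0.04 (edgeR adjusted p = 0.47) with TMM scaling and by 0.14 (edgeR adjusted p = 0.0047) without it, so the order of these 2 bacteria depends on the scaling. The same held for Hsd17b7, a ketoreductase of the demethylation step, which rose by 0.61 ± 0.06 with Fusobacterium and 0.63 ± 0.06 with Neisseria and was not called with Helicobacter (0.15 ± 0.06, edgeR adjusted p = 0.0691).

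Dhcr7, a late-acting sterol reductase, had 18.7, 20.4 and 16.7 TPM in untreated organoids, 31.4, 30.8 and 28.5 with Fusobacterium, 15.4, 18.6 and 16.8 with Helicobacter and 17.4, 17.1 and 18.4 with Neisseria. The Fusobacterium libraries stood clear of all others, which overlapped one another. Dhcr7 rose by 0.67 ± 0.08 with Fusobacterium (edgeR adjusted p = 6.3e-08), and Fusobacterium exceeded Helicobacter by 0.71 ± 0.08 (adjusted p = 2.82e-08) and Neisseria by 0.54 ± 0.08 (adjusted p = 1.54e-06). It was the one synthesis gene of the 18 called higher with Fusobacterium than with Neisseria, and without scaling Sqle and Hsd17b7 were called so as well. Ebp, a sterol isomerase, fell by 0.29 ± 0.08 with Fusobacterium (edgeR adjusted p = 0.00248) and had 87.6, 80.5 and 92.4 TPM untreated against 78.3, 67.7 and 72.0, with no overlap. Ebp was not called with Neisseria (-0.04 ± 0.08), but fell without scaling (-0.21, edgeR adjusted p = 0.0168). Tm7sf2, another sterol reductase, was not called against untreated organoids (0.12 ± 0.09 with Fusobacterium, -0.10 ± 0.09 with Helicobacter and 0.15 ± 0.09 with Neisseria) and shares its strand and part of its span with Vps51. In the same order Vps51 changed by -0.98 ± 0.08 (edgeR adjusted p = 6.27e-10), 0.02 ± 0.08 and -0.01 ± 0.08. Strand cannot separate the reads of this pair where they overlap, and the part of Vps51 in the Tm7sf2 values was not tested. Nsdhl, a dehydrogenase of the demethylation step, was called with Helicobacter (0.15 ± 0.05, edgeR adjusted p = 0.0471) and Neisseria (0.15 ± 0.05, edgeR adjusted p = 0.0203), but its libraries overlapped untreated ones in both, the first call was lost in 18 of 22 settings, and the second turned to -0.02 without scaling and was lost without Neisseria replicate 3 or untreated replicate 1.

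Among the regulators, Insig1, Insig2 and Lpin1 had the largest changes. Insig1, which retains SCAP and is itself an SREBP target, had 88.0, 81.9 and 83.4 TPM in untreated organoids, 154, 152 and 156 with Neisseria, 107, 115 and 113 with Helicobacter and 91.9, 113 and 98.8 with Fusobacterium. Neisseria libraries were highest, and Fusobacterium and Helicobacter libraries overlapped each other but not the untreated ones. Insig1 rose by 1.07 ± 0.06 with Neisseria (edgeR adjusted p = 4.55e-13), 0.50 ± 0.06 with Helicobacter (adjusted p = 1.34e-06) and 0.23 ± 0.06 with Fusobacterium (adjusted p = 0.00178). The direct comparison placed it 0.27 ± 0.06 lower with Fusobacterium than with Helicobacter (edgeR adjusted p = 0.000339).

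Insig2, the second INSIG gene, took the other order. Its levels were 33.1, 33.6 and 31.8 TPM in untreated organoids, 63.0, 60.6 and 56.3 with Fusobacterium, 35.6, 41.5 and 42.0 with Neisseria and 33.1, 35.7 and 31 with Helicobacter. Fusobacterium libraries stood clear of all others, and Helicobacter libraries overlapped untreated ones. Insig2 rose by 0.84 ± 0.06 with Fusobacterium (edgeR adjusted p = 3.3e-11) and 0.48 ± 0.06 with Neisseria (adjusted p = 8.09e-07), and was 0.36 ± 0.06 higher with Fusobacterium than with Neisseria (adjusted p = 1.28e-05), whereas Insig1 was 0.84 ± 0.06 lower (adjusted p = 2.3e-11).

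Lpin1, a phosphatidate phosphatase and transcriptional coregulator that acts on SREBP, had 4.71, 4.79 and 4.57 TPM in untreated organoids, 8.78, 12 and 12.2 with Neisseria, 9.78, 9.63 and 9.79 with Fusobacterium and 7.68, 8.58 and 7.41 with Helicobacter. Every treated library lay above every untreated one. It rose by 1.43 ± 0.10, 1.02 ± 0.10 and 0.85 ± 0.10 on the log2 scale (edgeR adjusted p = 8.06e-12, 2.86e-09 and 6.24e-07), the largest rise of the 31 genes with Neisseria and with Helicobacter. Of the SREBP genes themselves, Srebf1 rose by 0.22 ± 0.06 with Fusobacterium (edgeR adjusted p = 0.00282), with 45.8, 49.1 and 47.1 TPM against 42.6, 38.8 and 38.2 untreated, and differed by 0.11 ± 0.06 with Helicobacter and -0.00 ± 0.06 with Neisseria, neither called. Srebf1 overlaps Rai1 on the opposite strand, which changed by -0.52 ± 0.11, -0.20 ± 0.11 and -0.64 ± 0.11 with Fusobacterium, Helicobacter and Neisseria. Without scaling Srebf1 fell with Neisseria (-0.17, edgeR adjusted p = 0.0266), as did Scap (-0.32, edgeR adjusted p = 0.000336). Srebf2, which encodes the SREBP that acts chiefly on cholesterol genes, lay at the threshold with Fusobacterium, at 0.14 ± 0.06 (edgeR adjusted p = 0.0554, DESeq2 adjusted p = 0.0441, called in 7 of 22 alternative settings), and was at -0.04 ± 0.06 with Helicobacter and 0.03 ± 0.06 with Neisseria, neither called. Scap was at -0.01 ± 0.06 and -0.08 ± 0.06 with Fusobacterium and Helicobacter, neither called, and at -0.15 ± 0.06 with Neisseria (edgeR adjusted p = 0.0574), where 7 of 22 settings called it lower, the replicate block among them (edgeR adjusted p = 0.0408). The RNA of a factor does not show how much of its protein is cut.

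Of the 3 genes of sterol transport, Stard4 and Npc1 were called between every pair of bacteria, while Npc2 was called between none in the main edgeR fit. Without Helicobacter replicate 2, edgeR called Npc2 lower with Fusobacterium than with each of the others. Limma on log2(TPM + 1) called it higher with Fusobacterium, by 0.10 against Helicobacter (limma adjusted p = 0.0434) and by 0.13 against Neisseria (limma adjusted p = 0.0145). The direction for Npc2 thus depends on the processing. Stard4, a cytosolic carrier of cholesterol and an SREBP target, had 48.1, 46.7 and 43.9 TPM in untreated organoids, 77.5, 84.3 and 85.3 with Neisseria, 56.2, 57.4 and 50.9 with Helicobacter and 38.5, 39.0 and 40.0 with Fusobacterium. The 4 groups did not overlap, and Fusobacterium lay below untreated while the other bacteria lay above. Stard4 rose by 1.04 ± 0.04 with Neisseria (edgeR adjusted p = 1.36e-15) and by 0.35 ± 0.04 with Helicobacter (adjusted p = 3.74e-06), and fell by 0.27 ± 0.05 with Fusobacterium (adjusted p = 1.56e-05).

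Npc1, the lysosomal membrane protein that exports cholesterol, had 8.54, 8.89 and 7.82 TPM in untreated organoids, 23.6, 23.1 and 22.2 with Fusobacterium, 10.1, 11.2 and 12.1 with Neisseria and 8.28, 9.12 and 7.75 with Helicobacter. Fusobacterium libraries stood far above the rest, Neisseria libraries stood between, and Helicobacter libraries overlapped untreated ones. It rose by 1.42 ± 0.07 with Fusobacterium (edgeR adjusted p = 7.42e-14) and 0.61 ± 0.08 with Neisseria (adjusted p = 4e-07). The gene 3110002H16Rik, which overlaps Npc1 on the opposite strand, changed by 0.85 ± 0.08 with Fusobacterium and 0.27 ± 0.09 with Neisseria, and without strand the reads of the pair cannot be told apart where they overlap. Npc2, the soluble lysosomal partner of Npc1, changed by 0.07 ± 0.05 and 0.11 ± 0.05 with Fusobacterium and Helicobacter, neither called, and was called with Neisseria (0.18 ± 0.05, edgeR adjusted p = 0.00491), where its libraries overlapped untreated ones in TPM and limma on log2(TPM + 1) gave -0.02 (adjusted p = 0.674).

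The 4 genes of LXR and efflux differed among themselves, and 4 genes are too few to read their counts against the shares of all genes (25.5% lower with Neisseria, 32.8% higher and 32.4% lower with Fusobacterium). With Neisseria 2 of 4 fell and none rose (DESeq2 and limma on log2(TPM + 1) also called none higher, and 0 were higher at an unadjusted p below 0.05), with Fusobacterium 1 rose and 1 fell, and with Helicobacter none was called (1 higher and 2 lower at an unadjusted p below 0.05; DESeq2 called 0 and limma on log2(TPM + 1) 1). Abcg1, which exports sterol to lipoproteins, had 2.69, 2.07 and 2.41 TPM in untreated organoids, 7.72, 8.40 and 7.42 with Fusobacterium, 2.46, 2.51 and 1.67 with Helicobacter and 1.60, 2.53 and 2.22 with Neisseria. Fusobacterium libraries stood clear of all others, which overlapped. Abcg1 rose by 1.67 ± 0.17 with Fusobacterium (edgeR adjusted p = 5.61e-09) and changed by -0.02 ± 0.18 with Helicobacter and 0.01 ± 0.19 with Neisseria, neither called. Fusobacterium exceeded each of the other bacteria by 1.69 ± 0.16 and 1.67 ± 0.17 (edgeR adjusted p = 5.13e-09 and 6.81e-09). Cd68, which leukocytes also express, was higher in the same libraries, at 41.3 ± 1.53 TPM against 24.2 ± 2.19 untreated, and its part in this rise was not tested.

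Abca1, which exports sterol to apolipoproteins, had 128, 88 and 91 counts in untreated organoids and 43, 52 and 41 with Neisseria. In TPM these were 1.26, 1.14 and 1.01 against 0.410, 0.586 and 0.471, while Fusobacterium gave 1.17, 1.38 and 1.08 and Helicobacter 0.661, 1.09 and 0.654. Neisseria libraries lay below all others, and Helicobacter replicate 2 lay among the untreated values while the other two Helicobacter libraries lay below them. Abca1 fell by 1.02 ± 0.21 with Neisseria (edgeR adjusted p = 0.000231). The change with Helicobacter was -0.42 ± 0.19 (edgeR adjusted p = 0.136) and passed the threshold without Helicobacter replicate 2 (adjusted p = 0.0172).

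Mylip, a ubiquitin ligase that removes lipoprotein receptors, had 49, 47 and 47 counts in untreated organoids, 12, 16 and 21 with Neisseria, 36, 33 and 19 with Helicobacter and 57, 55 and 71 with Fusobacterium. In TPM the untreated libraries had 1.53, 1.94 and 1.66 and the Neisseria libraries 0.363, 0.573 and 0.766, with no overlap. Mylip fell by 1.40 ± 0.31 with Neisseria (edgeR adjusted p = 0.000521). It was not called with Helicobacter (-0.73 ± 0.28, edgeR adjusted p = 0.0726) or Fusobacterium (0.50 ± 0.26, edgeR adjusted p = 0.0952), although in TPM both groups stood apart from untreated libraries, on opposite sides. The receptor gene Nr1h2, which encodes LXR beta, fell by 0.17 ± 0.06 with Fusobacterium (edgeR adjusted p = 0.0236), a call lost without Fusobacterium replicate 1 or 3 or untreated replicate 3 (adjusted p up to 0.139), and changed by 0.15 ± 0.06 and 0.10 ± 0.06 with Helicobacter and Neisseria, neither called. At these counts a change of the size of Nr1h2 would not be detectable for Abca1 or Mylip.

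Set side by side, synthesis genes rose while Abca1 and Mylip fell with Neisseria, and with Fusobacterium Abcg1 rose beside the synthesis genes. The 18 synthesis genes summed to 1971 ± 7.86 TPM in untreated organoids, 2981 ± 7.62 with Neisseria, 2547 ± 29.1 with Fusobacterium and 2263 ± 24.9 with Helicobacter, and no libraries of different groups overlapped. Abca1, Abcg1 and Mylip together had 5.24 ± 0.212 TPM untreated, 3.17 ± 0.704 with Neisseria, 11.5 ± 0.416 with Fusobacterium and 3.97 ± 0.886 with Helicobacter. Neisseria and Helicobacter overlapped in this sum, both lay below the untreated libraries, and Fusobacterium lay above them. The sum with Fusobacterium is mainly Abcg1. The median log2 fold change of the 4 LXR and efflux genes was -0.51 with Neisseria, 0.28 with Fusobacterium and -0.22 with Helicobacter, a median over few genes that differ among themselves. The last ran from -0.38 without Helicobacter replicate 2 to -0.10 without Helicobacter replicate 3, and was -0.13 without untreated replicate 1.

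**Figure D3:**
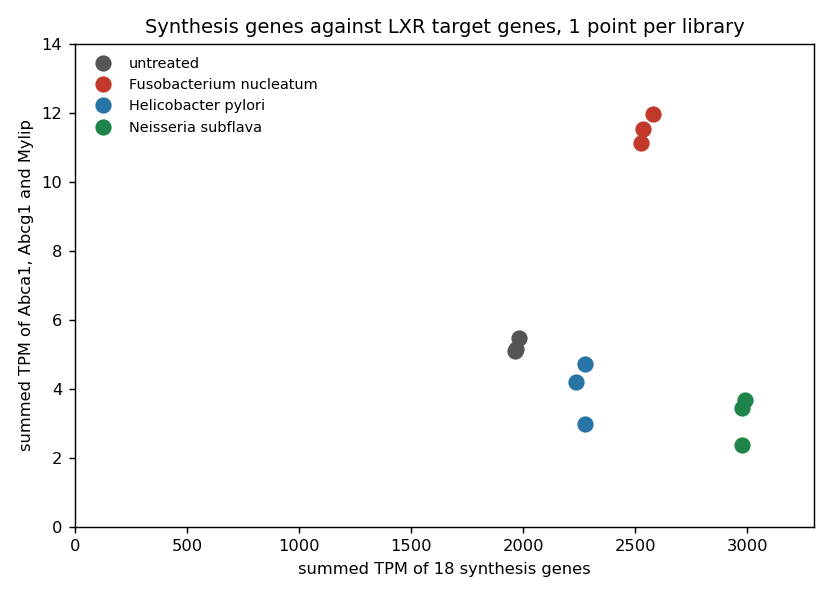
Summed TPM of the 18 synthesis genes (horizontal) and of Abca1, Abcg1 and Mylip (vertical), 1 point per library. The Neisseria libraries lie farthest right and low (means 2981 and 3.17 TPM), the Fusobacterium libraries lie right of untreated and high (2547 and 11.5 TPM), and the Helicobacter libraries lie slightly right of untreated and below it (2263 and 3.97 TPM).

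Direct comparisons between bacteria set no level against the untreated libraries, which enter only through the filter, scaling and shared spread of the fit. Against Fusobacterium, 14 of 18 synthesis genes were higher with Neisseria and 1, Dhcr7, was lower. Without scaling these were 10 and 3, and with limma on log2(TPM + 1) 10 and 4. For the 11 genes of the sterol steps the split was 7 higher and 1 lower with TMM. It was 4 and 3 without scaling and 4 and 4 with limma, so the lead of Neisseria there depends on the processing. Against Helicobacter 14 synthesis genes were higher with Neisseria and none lower (0 also at an unadjusted p below 0.05 and with DESeq2, and 1, Ebp, with limma on log2(TPM + 1)). Over all 31 genes, Fusobacterium against Neisseria had 7 higher and 18 lower, where 32.5% of all genes were higher and 34.1% lower. Helicobacter against Neisseria had 1 higher, Abca1, and 19 lower, where 17.7% and 19% of all genes were called, and the call of Abca1 (0.60 ± 0.21, edgeR adjusted p = 0.0293) was lost without Helicobacter replicate 2, Neisseria replicate 1 or Neisseria replicate 3. Fusobacterium against Helicobacter had 15 higher and 8 lower, with 31.8% and 33.5% as the shares of all genes, and for synthesis genes 9 and 5. Without scaling 11 of the 31 were higher with Fusobacterium than with Neisseria, and the share of all called genes that were higher was 65.9%, against 48.7% with TMM. For Helicobacter against Neisseria that share was 71.5% against 48.2%.

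The size of the gap between bacteria differed along the pathway. Neisseria exceeded Fusobacterium by 0.82 ± 0.07 for Mvd, 0.69 ± 0.05 for Msmo1 and 0.55 ± 0.04 for Hmgcs1, and differed from it by less than the error for Sqle, Hsd17b7 and Tm7sf2. Fusobacterium exceeded Helicobacter by 0.46 ± 0.06 for Hsd17b7 and 0.24 ± 0.04 for Sc5d, while Hmgcs1, at 0.08 ± 0.04 (edgeR adjusted p = 0.0858), was not called between these 2, and Msmo1, at 0.10 ± 0.05 (adjusted p = 0.0498), lost its call without any 1 of 9 libraries. The widest gaps lay outside the synthesis genes. Mylip was 1.90 ± 0.30 higher with Fusobacterium than with Neisseria (edgeR adjusted p = 6.3e-06), Abcg1 1.67 ± 0.17 higher, and Stard4 1.31 ± 0.04 lower (adjusted p = 3.04e-17). Any difference among the 4 groups was called for 28 of the 31 genes, where 80.8% of all tested genes were called, so that share is near the background.

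**Figure D4:**
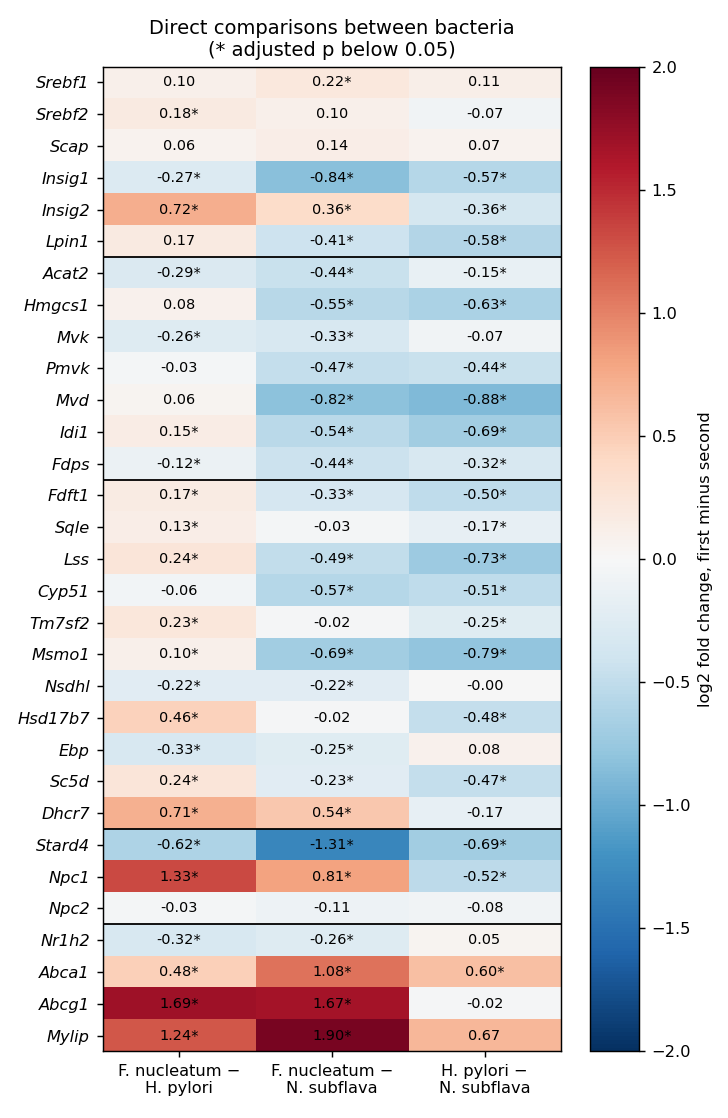
Log2 fold changes (edgeR, first group minus second) of the 31 genes in the 3 direct comparisons between bacteria, in the order SREBP control, mevalonate steps, sterol steps, transport, LXR and efflux, with black lines between them. An asterisk marks an adjusted p below 0.05; the synthesis genes are mostly blue in the Neisseria columns, with Mvd at -0.82 and -0.88, and Abcg1 and Mylip are red in the Fusobacterium columns.

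Another 71 genes of sterol and lipid control, in 7 lists, were read in the same test. They were listed for their roles, with earlier results of these data known, and without scaling beyond the library total their counts with Neisseria shifted toward falls, as given after each. Their counts are to be read against the shares of all genes called higher and lower (25.4% and 25.5% with Neisseria, 32.8% and 32.4% with Fusobacterium, 10.5% and 8.36% with Helicobacter), and many lie near them. Of 7 other SREBP2 target genes, 4 rose and 3 were not called with Neisseria, 5 rose and 2 fell with Fusobacterium, and 2 rose and 1 fell with Helicobacter (2 rose and 3 fell with Neisseria without scaling). Vldlr, a lipoprotein receptor, went from 5.26 ± 0.0744 TPM to 26.6 ± 2.10 with Neisseria and rose by 2.54 ± 0.07, 0.68 ± 0.08 and 1.58 ± 0.07 on the log2 scale with Neisseria, Fusobacterium and Helicobacter (edgeR adjusted p = 2.79e-19, 3.61e-08 and 2.77e-14). Aacs, which activates acetoacetate for lipid synthesis, rose by 0.66 ± 0.05, 0.38 ± 0.05 and 0.33 ± 0.05, and Acsl3, an acyl-CoA synthetase, rose with Fusobacterium (0.84 ± 0.05), was not called with Helicobacter (0.09 ± 0.05) or Neisseria (-0.04 ± 0.05), and fell with Neisseria without scaling (-0.21). Of 13 tested SREBP targets of fatty acid synthesis, 3 rose and 6 fell with Neisseria, 8 rose and 3 fell with Fusobacterium, and 1 rose and 3 fell with Helicobacter (1 rose and 7 fell with Neisseria without scaling). Among them the desaturase gene Scd2 rose by 1.12 ± 0.04, 0.19 ± 0.04 and 0.61 ± 0.04 in the order Neisseria, Fusobacterium, Helicobacter. Acss2, which makes acetyl-CoA from acetate, rose by 1.08 ± 0.09 with Fusobacterium and was not called with the others, and Mid1ip1, an activator of acetyl-CoA carboxylase, fell by 0.88 ± 0.05 with Fusobacterium and by 0.31 ± 0.05 with Neisseria.

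Of 9 genes of SREBP cleavage and sterol-regulated degradation, 7 fell and 2 were not called with Fusobacterium, 3 rose and 4 fell with Neisseria, and 1 fell and 8 were not called with Helicobacter. Without scaling 4 fell with Neisseria and the 3 rises were lost. Mbtps1, the first protease that cuts SREBP, fell by 0.53 ± 0.06 with Fusobacterium and 0.23 ± 0.06 with Neisseria. Erlin2, of sterol-regulated degradation at the endoplasmic reticulum, fell by 0.16 ± 0.04 and 0.20 ± 0.04. Of 9 genes of the isoprenoid branch, 3 rose and 1 fell with Neisseria, 3 rose and 6 fell with Fusobacterium, and 1 fell and 8 were not called with Helicobacter (2 rose and 3 fell with Neisseria without scaling). Nus1 and Ggps1, which extend isoprenoid chains, rose by 0.48 ± 0.05 and 0.51 ± 0.06 with Neisseria and by 0.22 ± 0.05 and 0.36 ± 0.06 with Fusobacterium, and Fnta, of protein prenylation, fell by 0.43 ± 0.06 with Fusobacterium.

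Of 7 tested other LXR targets and partners, 1 rose and 3 fell with Neisseria, 2 rose and 3 fell with Fusobacterium, and with Helicobacter edgeR called 0 (1 was lower at an unadjusted p below 0.05 and 1 with limma on log2(TPM + 1)). Without scaling 1 rose and 5 fell with Neisseria. Arl4c, an LXR target, fell by 1.05 ± 0.06 with Neisseria (edgeR adjusted p = 3.86e-13), from 54.9 ± 1.22 to 23 ± 2.29 TPM, and by 0.25 ± 0.06 with Fusobacterium. Lpcat3, an LXR target that remodels phospholipids, rose by 0.50 ± 0.05 with Fusobacterium and fell by 0.30 ± 0.05 with Neisseria, and Rxra, a partner of LXR, fell by 0.43 ± 0.07 with Neisseria. Of 7 tested genes of sterol esters and oxysterols, 4 rose and 2 fell with Fusobacterium, 2 rose and 1 fell with Neisseria (2 and 3 without scaling), and 1 rose and 1 fell with Helicobacter. With Neisseria the log2 fold changes in this list ran from -0.75 to 4.24. The gene at 4.24 is not among the 3 named next, which had the smallest adjusted p. Soat1, which esterifies cholesterol, rose by 0.79 ± 0.04 with Fusobacterium and 0.27 ± 0.04 with Helicobacter, and the lysosomal lipase gene Lipa rose by 0.82 ± 0.08 with Fusobacterium. Nceh1, a cholesterol ester hydrolase, rose by 0.59 ± 0.07 with Fusobacterium and fell by 0.75 ± 0.07 with Neisseria and 0.43 ± 0.07 with Helicobacter. Of 13 tested sterol transfer proteins, 6 rose and 4 fell with Fusobacterium, 6 rose and 3 fell with Neisseria (4 and 5 without scaling), and 2 rose and 1 fell with Helicobacter. Osbpl2 rose by 0.74 ± 0.05 with Fusobacterium and was not called with the others. Cav1 rose by 1.05 ± 0.08 with Neisseria, and also rose with Fusobacterium (0.37) and Helicobacter (0.44). Gramd1b fell by 0.87 ± 0.07 with Fusobacterium, and also fell with Helicobacter (-0.31) and Neisseria (-0.17).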

How the data were processed

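RNA-seq of 12 libraries was analysed. The authors deposited whole-number counts per gene and TPM values, per the file headers, made on GRCm38, per the submitters' processing notes. Aligner, counting method and strand use are not given in the sources used here. Another 24 columns of per-sample values (RPKM and CPM) were not used. Counts were fitted with edgeR 4.0.16 in R 4.3.3 (filterByExpr on low counts, TMM scaling, robust quasi-likelihood tests, a coefficient per group, no replicate block). P values were two-sided and adjusted by Benjamini-Hochberg over 12805 genes, which hold 99.96% of counts, with a threshold of 0.05. Errors of log2 fold changes are its size over the root of the test's F. Library totals were 16955155 to 23236260 counts, and replicates differed by more than counting noise (chi-square per degree of freedom 2.26 to 10.5). Log2 fold changes of log2(TPM + 1) understate low genes. Alternatives used DESeq2 1.42.0 and limma 3.58.1, other filters and scalings, and left out each library. Same-numbered replicates did not deviate together (r from -0.0959 to 0.0919), so numbers were not taken to pair samples. The script was tested on simulated data. The members and lists were chosen with earlier results of these data known. All 31 members are named, and up to 3 genes of each other list, those with the smallest adjusted p against untreated organoids; 1 gene so chosen is not reported here. Of the markers, 1 was not in the table.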

Additional observations from a re-analysis of the deposited data

Results flagged for a closer look

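Stard4 and Acat2 were called in opposite directions with different bacteria against the same untreated libraries, and the direct comparison of the bacteria passed as well (edgeR's quasi-likelihood test, adjusted by Benjamini-Hochberg). Stard4 fell with Fusobacterium and rose with Helicobacter and Neisseria, and the direct log2 differences were -0.62 for Fusobacterium against Helicobacter and -1.31 for Fusobacterium against Neisseria. Acat2 fell with Fusobacterium and rose with Neisseria, and the direct log2 difference was -0.44. The 3 Fusobacterium libraries lay below all others for both genes, and the rise of Acat2 with Neisseria was not called without scaling beyond the library total.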

How the results depend on the processing

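Of 186 member values (31 genes in 6 comparisons), 128 were called, of which 24 lost the call in at least 1 of 22 alternative settings, and of the 58 not called 31 gained one in at least 1. With limma on log2(TPM + 1) and on log2(TPM + 0.1) alike, 1 member fell with Helicobacter (also 1 with the filter of 50 counts), 5 fell with Neisseria, 5 were lower with Fusobacterium than with Helicobacter, 13 were higher with Fusobacterium than with Neisseria, and 3 were higher with Helicobacter than with Neisseria. Without scaling these were 5 falls with Neisseria and 11 and 5 for the last pair, and with only the 6 libraries compared the last was 0. The synthesis median was 0.11 with Helicobacter and 0.49 or 0.50 with Neisseria by limma (pseudocount 1 or 0.1), and 0.16 and 0.54 without scaling. The median of the LXR and efflux genes was 0.20 with Fusobacterium and -0.33 with Neisseria by limma on log2(TPM + 1), and -0.67 with Neisseria without scaling. Limma on TPM changes the tool, unit and pseudocount as well as the scaling, and the cause of its differences was not tested.

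Signs turned by limma (pseudocounts 1 and 0.1) as follows, for values called in the main fit or in the alternative setting. Turns of values called in neither are not listed. With Neisseria against untreated, Nsdhl was -0.0578 and -0.0585 (-0.0198 without scaling) and Npc2 -0.0216 and -0.0218. Between Fusobacterium and Helicobacter, Fdps was 0.0175 and 0.0175 and Npc2 0.10 and 0.10. Between Fusobacterium and Neisseria, Sqle was 0.20 and 0.20 (0.14 without scaling), Hsd17b7 0.21 and 0.21 (0.15 without scaling), Tm7sf2 0.20 and 0.21, Nsdhl 0.015 and 0.0152, Sc5d 0.006 and 0.006 and Npc2 0.13 and 0.13. Of these turned values, limma called Npc2 in each of its comparisons between bacteria, and Sqle, Hsd17b7 and Tm7sf2 between Fusobacterium and Neisseria.

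Leaving out 1 library at a time gave synthesis medians of 0.33 to 0.40 with Fusobacterium, 0.21 to 0.24 with Helicobacter and 0.69 to 0.73 with Neisseria, and medians of the LXR and efflux genes of 0.24 to 0.32, -0.38 to -0.10 and -0.65 to -0.42 in the same order. It gave 0 to 1 falls with Helicobacter (1 without Helicobacter replicate 2) and 0 to 1 members higher with Helicobacter than with Neisseria (0 without Helicobacter replicate 2, Neisseria replicate 1 or Neisseria replicate 3). With the replicate number as a block, 19 members rose and 4 fell with Fusobacterium, 15 and 0 with Helicobacter and 20 and 3 with Neisseria. The block gained 1 of the 186 member calls, Scap with Neisseria, and lost 0, and each library agreed best with its own number in 6 of 18 cases. Counts of Abca1 and Mylip, 12 to 128 per library, limit what can be seen for these genes.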
